A study of Mus musculus with 3 samples.

Results

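Sox6 encodes a transcription factor of the SoxD group. Its RNA is described here as a target of CELF1, which binds RNA and takes part in splicing and mRNA decay, in 3 CLIP-seq libraries. A site is a cluster, a stretch of RNA in which the authors found more crosslinked reads than a Poisson model of the gene's expression and pre-mRNA length predicted. The Sox6 clusters were selected by the Entrez identifier that each cluster carries (20679), with earlier results of these data known. They numbered 152 of the 72222 clusters in the deposited lists, and Sox6 was 1 of the 8037 genes with a cluster in any library. Because the gene was chosen for what these lists show, its counts are a description and no test was made on them.

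In muscle, SOX6 is known for holding down the genes of slow, oxidative fibres, so that fibres in which it is active keep a fast programme, and it takes part in the maturation of heart muscle. Its mRNA is a known target of microRNAs that lie within introns of slow and cardiac myosin heavy chain genes. CELF1 binds RNA that is rich in uracil and guanine, with UGU as the core of its motif. In introns it can affect splicing of nearby exons, and in 3' untranslated regions (3' UTRs) it is known to bring deadenylases to the mRNA.

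In CLIP-seq, UV light (254 nm) fixes a protein to the RNA it touches, the protein is pulled down with an antibody, and the attached RNA is sequenced. All libraries were made with monoclonal antibody 3B1 against endogenous CELF1. One library came from heart (ventricle) and another from muscle, both of C57/BL6 mice aged 16 weeks, and the last from C2C12 myoblasts, a line of mouse muscle precursor cells. There was 1 library per group, so no value has a replicate. The sources used here do not say which muscle was taken or how many mice went into a library. The intervals below are exact 95% intervals, Poisson for counts and Clopper-Pearson for shares, and cover counting error only.

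On the mm9 genome, Sox6 (ENSMUSG00000051910.7) lies on the minus strand at chr7:122614858-123182258, a span of 567 kb. GENCODE lists 5 protein-coding transcripts with 5 different first exons. The transcript used to number introns here (ENSMUST00000072804.4) has 17 exons and 16 introns, a coding sequence of 2481 nt and its start codon in exon 3. Exons of all transcripts together make up 1.56% of the span. The 3' UTR is 5577 nt long at chr7:122614858-122620434, counted from the first base of the stop codon. Annotated transcripts end at 3 places in it, 263 nt (1 transcript), 2446 nt (1 transcript) and 5577 nt (3 transcripts) from that base.

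The RNA under the clusters is shown first. The 6 stretches below are the 30 nt in the middle of the sequence that a heart cluster and a muscle cluster had in common, read from the mm9 minus strand as RNA. They are the 3 in introns and the 3 in the 3' UTR whose 30 nt held most UGU, with ties going to the longer common stretch. Every UGU is in capitals.
Intron 1, chr7:123128614-123128643: UGUGUcUGUaUGUGUGUaUGUaugaUGUgc
Intron 1, chr7:123120318-123120347: gugcUGUGUUGUGUGUGUGUGUGUGUGUGU
Intron 13, chr7:122676838-122676867: uuUGUcucUGUcucuuagUGUGUGUGUGUg
3' UTR, chr7:122618180-122618209: uuuUGUuUGUuUGUucuuuuuuuuaaaaaa
3' UTR, chr7:122617728-122617757: guaggaacgcucUGUGUcagcuccagcucg
3' UTR, chr7:122615370-122615399: ccuuuucuuugccuacauUGUaauuUGUuu

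The intronic windows held 8, 12 and 7 overlapping UGU triplets, and their longest runs of alternating U and G were 7, 21 and 13 nt. The windows of the 3' UTR held 3, 2 and 2 triplets, set among other uracils or in mixed sequence.

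Sox6 was bound in heart and in muscle and had no cluster in myoblasts. Heart had 68 Sox6 clusters (52.8 to 86.2), which is 0.161% of the 42263 clusters in that list (0.125 to 0.204%). Muscle had 84 (67.0 to 104), or 0.338% of 24844 (0.270 to 0.418%). The myoblast list is the shortest, with 5115 clusters, and 0 of them lay in Sox6, which allows a share of up to 0.0587% when a count of 0 is taken as at most 3 counts (the exact 95% interval reaches 0.0721%). At the share seen in heart the myoblast list would hold 8.23 Sox6 clusters, and at the share in muscle 17.3.

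Few genes carried more clusters. In heart 23 genes had more than Sox6, and those with at least as many, Sox6 included, were 0.35% of 6857 genes. In muscle 4 genes had more, and those with at least as many were 0.0936% of 5341. An empty myoblast list was common, in contrast: 60.2% of the 4573 genes with clusters in both heart and muscle had none in myoblasts. Among the 25 genes with at least 100 clusters in heart and muscle together, 44.0% had none there. The files hold clusters without read numbers, so the depth behind each cluster is unknown. In these bulk samples fewer cells of a type and less RNA per cell cannot be told apart, and the level of Sox6 mRNA was not measured here.

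All Sox6 clusters were on the minus strand. They were 36 to 102 nt wide in heart (median 51) and 35 to 118 nt in muscle (median 54), close to the medians of 55 and 54 nt over all clusters of these libraries. Together they covered 3706 nt in heart and 4978 nt in muscle.

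Most of the binding was intronic in both tissues. In heart 60 of 68 clusters lay in introns (88.2%, 78.1 to 94.8%), against 59.2% of all heart clusters, and 8 in the 3' UTR (11.8%, 5.22 to 21.9%), against 33.5%. In muscle 61 of 84 lay in introns (72.6%, 61.8 to 81.8%), against 43.4% of all muscle clusters, and 22 in the 3' UTR (26.2%, 17.2 to 36.9%), against 50.5%. One muscle cluster, chr7:122920718-122920753, lay in coding exon 4, and no cluster of either library lay in the 5' UTR. Both tissues thus had a larger intronic share in Sox6 than over all genes, in a gene that is nearly all intron.

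Between the tissues, the intronic counts were nearly equal, and more clusters were called in the 3' UTR in muscle than in heart. The ratio of muscle to heart clusters was 1.02 in introns (0.70 to 1.48), while over all genes it was 0.434. In the 3' UTR it was 2.75 (1.18 to 7.14), while over all genes it was 0.892. These intervals overlap each other and cover counting error only, with neighbouring clusters counted as independent. The gene was chosen for its counts, so no test is read from them. With 3' UTR clusters within 30 nt of each other merged, 12 sites in muscle and 6 in heart gave a ratio of 2.0 (0.695 to 6.49), an interval that includes the 0.886 over all genes.

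**Figure D1:**
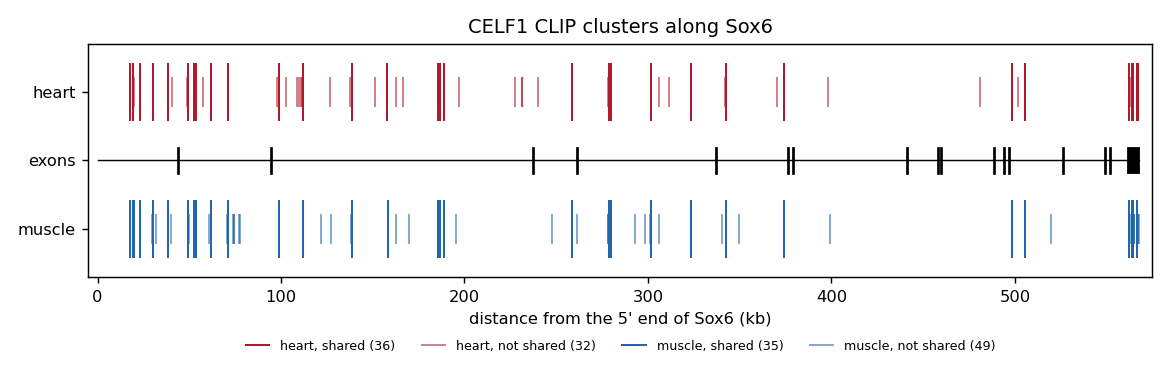
Clusters along the Sox6 gene, with the distance from its 5' end in kb on the horizontal axis, each tick being 1 cluster (heart above, muscle below, tall dark ticks where it overlaps a cluster of the other tissue) and black marks on the middle line the exons of the representative transcript. Ticks are densest at the 5' end on the left, a stretch of over 80 kb past the middle is empty in both libraries, and ticks gather again in intron 13 and at the 3' UTR on the right.

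Along the introns, the clusters were denser at the 5' end. The introns that precede the start codon exon, including the region upstream of the representative first exon, make up 236 kb or 42.3% of the intron length. They held 40 of the 60 intronic clusters in heart (66.7%, 53.3 to 78.3%) and 39 of the 61 in muscle (63.9%, 50.6 to 75.8%). That is 1.69 and 1.65 clusters per 10 kb, against 0.621 and 0.683 in the 322 kb of intron after the start codon exon.

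The 142 kb of intron 2, which ends at the start codon exon, held most clusters of any intron in heart, 23, and 13 in muscle. Per 10 kb that is 1.62 (1.02 to 2.43) in heart and 0.914 (0.486 to 1.56) in muscle, with intervals that overlap. Intron 1, of 51.0 kb, held 9 clusters in heart and 15 in muscle, the latter being the highest density of an intron in muscle at 2.94 per 10 kb. Upstream of the representative first exon, 43.7 kb of intron of longer transcripts held 8 and 11. Muscle thus had fewer clusters than heart in intron 2 and more in the regions on its 5' side.

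After the start codon exon, the clusters fell into a few introns. Intron 4 (75.3 kb) held 8 clusters in heart and 11 in muscle, intron 5 (39.3 kb) held 4 and 4, and intron 3 (24.1 kb) 2 and 2. Intron 13 (28.9 kb), near the 3' end, again held 4 and 4. Intron 7 held only 1 in each library although it is 61.9 kb long, or 0.162 per 10 kb (0.00409 to 0.9). Introns 6, 8, 9, 11, 12, 14, 15 and 16 had no cluster in either library, of which intron 14 (22.8 kb) and intron 8 (16.9 kb) are the longest.

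**Figure D2:**
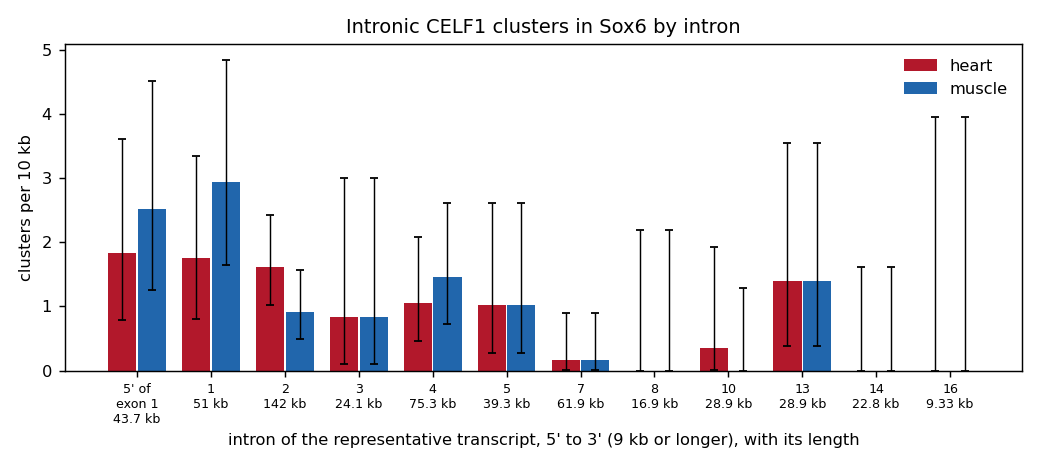
Clusters per 10 kb in the Sox6 introns of the representative transcript that are at least 9.33 kb long, and in the region upstream of its start. Shorter introns are not drawn. Bars show heart and muscle, and lines the exact Poisson 95% intervals, which cover counting error only. The heart bars are highest upstream and in introns 1 and 2 and the muscle bars in intron 1, upstream and in intron 4. Both tissues reach 1.39 per 10 kb in intron 13, while intron 7 stands at 0.162 in both libraries.

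In 10 equal parts of the gene from its 5' end, heart intronic clusters numbered 14, 11, 7, 5, 9, 4, 4, 1, 5 and 0. Muscle had 16, 12, 7, 4, 7, 7, 3, 1, 3 and 1. The profiles of the tissues followed each other. They were low in the eighth part, with 1 cluster in each, and in the tenth, with 0 in heart and 1 in muscle. The longest stretch between the midpoints of neighbouring intronic clusters took in most of the eighth part. It was 82.8 kb in heart (from 398.2 to 481.1 kb from the 5' end) and 99.3 kb in muscle (from 399.4 to 498.7 kb).

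The part of a gene before its midpoint was often the denser one among genes with many clusters. In Sox6 it held 46 of 60 intronic clusters in heart (76.7%, 64.0 to 86.6%) and 46 of 61 in muscle (75.4%, 62.7 to 85.5%). Among the 200 genes with at least 20 intronic clusters in heart the median share was 60.0%, and 18.5% of them reached the share of Sox6. Among the 51 such genes in muscle the median was 62.0%, and 29.4% reached it.

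The intronic clusters lay far from exons. Of the intron length, 3.58% is within 500 nt of an exon of any Sox6 transcript, and it held 0 of 60 clusters in heart and 0 of 61 in muscle. A count of 0 has an exact Poisson interval of up to 3.69 clusters, and by length alone few clusters would lie there. Over all genes, 17.8% of intronic clusters in heart and 20.9% in muscle lay that near, shares that are not matched for intron length. By midpoint, the nearest were 1562 nt (heart) and 1585 nt (muscle) from an exon, both in intron 13, and the medians were 9.85 and 13.9 kb. A cassette exon of 123 nt at chr7:122722530-122722652, which 2 of the 5 transcripts include, had its nearest cluster 21.3 kb away in heart and 39.0 kb away in muscle. Within the introns the median gap between the midpoints of neighbouring clusters was 3819 nt in heart and 3418.5 nt in muscle. Of these gaps, 10 of 59 and 12 of 60 were under 500 nt.

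For its length, Sox6 ranked high among long genes. Among the 307 genes with a span of at least 300 kb and a cluster in any library, the median density was 1.46 intronic clusters per 100 kb of gene span in heart and 0.248 in muscle. Sox6 had 10.6 and 10.8, with 27 of these genes denser in heart and 2 in muscle.

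With clusters counted as deposited, the 3' UTR carried nearly the whole difference in count between the tissues. The intronic counts were nearly equal although the muscle list is shorter, with a muscle to heart ratio of 1.02 beside 0.434 over all genes. The 8 heart clusters of the 3' UTR covered 367 nt of it (6.58%) and the 22 muscle clusters 1682 nt (30.2%). Counted from the first base of the stop codon, the heart clusters were at nt 174 to 216, 704 to 739, 2169 to 2205, 2219 to 2263, 2663 to 2723, 4801 to 4844, 4873 to 4928 and 5029 to 5073. They formed 2 single sites in the first part, 2 neighbouring clusters before the annotated end at 2446 nt, 1 past it, and a group of 3 near the distal end.

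The muscle clusters lay at 7 of these 8 places and around them. Between nt 140 and 569 they were at nt 140 to 245, 260 to 336, 370 to 435, 441 to 478 and 483 to 569, where heart had 1 cluster. From nt 1854 to 2402 there were 5 more, among them the widest Sox6 cluster of muscle, 118 nt at nt 2172 to 2289 with 10 UGU. Near the distal end, 5 clusters at nt 4736 to 4784, 4801 to 4862, 4869 to 4966, 4968 to 5082 and 5084 to 5198 joined into a run of 463 nt when neighbours within 30 nt were merged.

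Both tissues had clusters on each side of the annotated end at 2446 nt. The first 2446 nt, present in the transcripts with the middle and the distal end, held 4 clusters in heart and 11 in muscle. The 3131 nt that only the distal end includes also held 4 and 11. The longest empty stretches of the 3' UTR overlapped, from nt 2724 to 4800 in heart and from nt 3337 to 4735 in muscle.

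**Figure D3:**
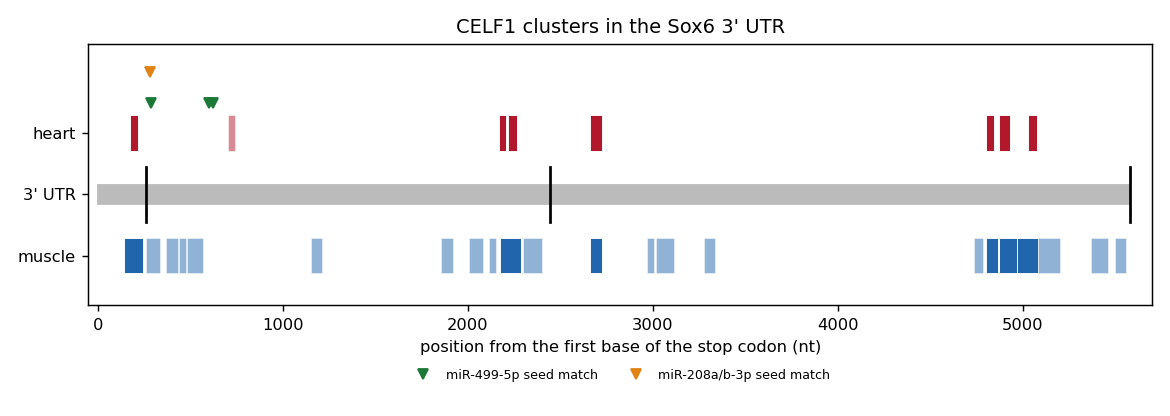
Clusters along the Sox6 3' UTR, with the distance from the first base of the stop codon in nt on the horizontal axis, heart above and muscle below. Triangles mark matches to the seeds of miR-499-5p and of miR-208a-3p and miR-208b-3p, upright black lines the annotated transcript ends at 263, 2446 and 5577 nt, and dark boxes the clusters that overlap one of the other tissue. Dark muscle boxes lie under 7 of the 8 heart clusters, and 16 pale ones fill further stretches around them.

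The size of this excess depends on how neighbouring clusters are counted. Among 4894 genes with a 3' UTR cluster in heart or muscle, the median difference was 0 and 0.0613% had a difference of at least 14. These were Sox6, Mllt3 with 18 in muscle and 4 in heart, and Synm, which encodes the intermediate filament protein synemin, with 15 and 0. Mllt3 and Synm were named after their values were seen. With neighbours within 30 nt merged, a setting added after seeing the data, Sox6 had 12 sites in muscle and 6 in heart, an excess of 6 that 0.715% of the 4894 genes reached. By 3' UTR clusters as deposited, 11 of the 3614 genes with any in muscle had more than Sox6, and 270 of the 4152 with any in heart.

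**Figure D4:**
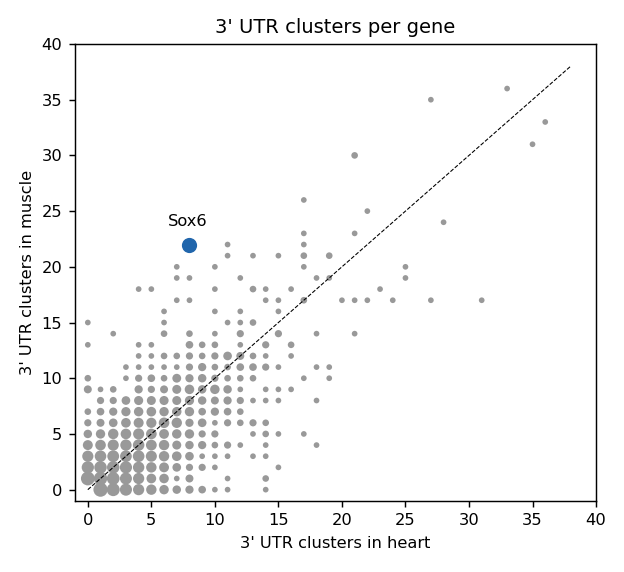
Number of 3' UTR clusters per gene in muscle (vertical) against heart (horizontal), where each grey point is a pair of counts, its area grows with the log of the number of genes that have it, and the dashed line marks equal counts. Sox6 stands at 8 and 22, above the line and far from the mass of genes near the origin.

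Sharing between heart and muscle was counted as an overlap of at least 1 bp on the same strand, and a share depends on the length of the other list. Of the heart clusters in Sox6, 36 of 68 overlapped a muscle cluster (52.9%, 40.4 to 65.2%), against 30.9% of all heart clusters. Of the muscle clusters, 35 of 84 overlapped a heart cluster (41.7%, 31.0 to 52.9%), against 52.8% of all muscle clusters.

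In the 3' UTR the sharing was lopsided. Muscle clusters overlapped 7 of the 8 heart clusters (87.5%, 47.3 to 99.7%; 53.8% over all genes), whereas heart clusters overlapped 6 of the 22 in muscle (27.3%, 10.7 to 50.2%; 60.9% over all genes). Heart had 8 clusters there against 22 in muscle, which limits how many muscle clusters could be shared. The latter share thus largely follows from the counts. Measured between midpoints, the 16 muscle clusters that were not shared had a median distance of 234.5 nt to the nearest heart cluster. Of these, 7 were within 200 nt and all 16 within 1 kb. The midpoint of the heart cluster that was not shared, at nt 704 to 739, was 195 nt from that of the nearest muscle cluster.

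In introns the sharing was even. Of the heart clusters 29 of 60 were shared (48.3%, 35.2 to 61.6%; 19.0% over all genes), and of the muscle clusters 29 of 61 (47.5%, 34.6 to 60.7%; 43.6% over all genes). Before the start codon exon 19 of 40 heart clusters were shared (47.5%), and after it 10 of 20 (50.0%). In muscle it was 19 of 39 (48.7%) and 10 of 22 (45.5%), close values on each side of the start codon exon.

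The share over all genes is a low mark for a gene with many clusters in both tissues. Among the 40 genes with at least 20 intronic clusters in both libraries, Sox6 included, the median share was 45.8% for heart clusters and 64.1% for muscle clusters. Of these genes 42.5% reached the share of Sox6 in heart and 77.5% reached it in muscle. Sox6 was thus near the middle of them for heart clusters and in the lower part for muscle clusters.

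**Figure D5:**
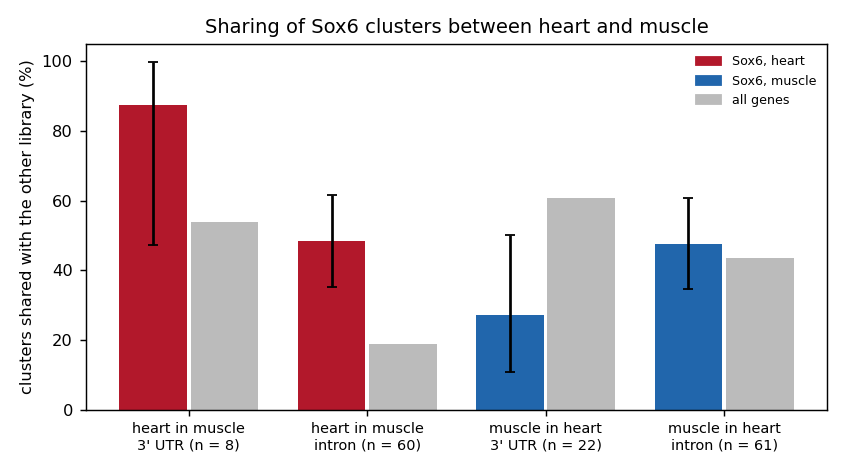
Share of Sox6 clusters that overlap a cluster of the other tissue, in percent, for introns and the 3' UTR, with exact Clopper-Pearson 95% intervals (counting error only) and the share over all genes beside each. Heart 3' UTR clusters stand at 87.5% and muscle 3' UTR clusters at 27.3%, while both intronic shares are near 48%.

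Clusters were called shared by an overlap of at least 1 bp, so common bases follow from the definition and only their extent is described. The overlaps formed 37 common stretches, 30 in introns with a median of 42.5 nt (5 to 82) and 7 in the 3' UTR with a median of 45 nt (34 to 61). The midpoints of the overlapping clusters were a median of 10.5 nt apart in introns and also in the 3' UTR. The largest distances were 72.5 and 43.5 nt. The midpoints lay within 20 nt of each other in 24 of 30 and 5 of 7 stretches. The intronic clusters that were not shared were mostly far from the other tissue's clusters. Between midpoints, the median distance was 1.20 kb in both heart (31 clusters, 6 within 200 nt) and muscle (32 clusters, 8 within 200 nt).

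UGU was present in nearly every Sox6 cluster, as over all genes. It was found on the RNA strand in 68 of 68 heart clusters (94.7 to 100%; 98.3% over all heart clusters) and in 81 of 84 muscle clusters (96.4%, 89.9 to 99.3%; 98.4%). The median number of UGU per cluster was 4 in heart and 4.5 in muscle, beside 4 and 4 over all clusters. Runs of alternating U and G of at least 8 nt were found in 8 heart clusters (11.8%; 17.0% over all genes) and 10 muscle clusters (11.9%; 11.8%), all of them outside the 3' UTR. Among intronic clusters alone the shares were 13.3% in heart (24.7% over all genes) and 16.4% in muscle (20.4%). The site richest in UGU was the shared one in intron 1 whose middle is the second sequence above. There the heart cluster, chr7:123120278-123120354, held 25 UGU and the muscle cluster 16.

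The density of UGU was close in shared and unshared clusters of introns. There the number per 10 nt was 1.03 in shared and 0.942 in unshared heart clusters, and 0.999 and 1.07 in muscle. In the muscle 3' UTR it was 0.634 in the 6 shared and 0.413 in the 16 unshared clusters, and in the heart 3' UTR 0.695 in the 7 shared and 0.278 in the 1 unshared cluster. The 3 clusters with no UGU were unshared muscle clusters, 2 in intron 2 and 1 in the 3' UTR at nt 5500 to 5556.

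The 3' UTR also holds matches to the seeds of microRNAs that are encoded within myosin genes and known to act on Sox6. Their mature sequences are given from RefSeq (GRCm38.p6), with the seed, bases 2 to 8, in capitals.
miR-499-5p: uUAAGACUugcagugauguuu
miR-208a-3p: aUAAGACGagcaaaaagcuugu
miR-208b-3p: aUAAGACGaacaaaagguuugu
The matches in the Sox6 3' UTR are shown as RNA with 30 nt of mm9 sequence, the match in capitals.
miR-208a-3p and miR-208b-3p, nt 279 to 285, chr7:122620138-122620167: cugcccaucgcCGUCUUAugagucuuacau
miR-499-5p, nt 288 to 294, chr7:122620129-122620158: gccgucuuaugAGUCUUAcauuucugucuu
miR-499-5p, nt 601 to 607: acuauuuuaaaAGUCUUAcaggagacacug
miR-499-5p, nt 623 to 629: agacacugcaaAGUCUUAgacaaucuuuga

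The first pair of matches lay inside a cluster, and only in muscle. The muscle cluster at nt 260 to 336, which no heart cluster overlapped, covered the miR-208 match and the first miR-499 match. The nearest heart cluster was 63 and 72 nt from them. The other miR-499 matches were in no cluster, 32 and 54 nt from the nearest in muscle and 97 and 75 nt from the nearest in heart. Among 453 mouse 3' UTRs of 4500 to 6500 nt, 33.3% held a miR-499 match, 1.32% held at least 3 as Sox6 does, and 7.51% held a miR-208 match. A match of these letters is a description and does not show that the microRNA binds there.

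Over all 21896 protein-coding genes of the RefSeq names table, 31.3% had a cluster in heart, 24.3% in muscle and 12.5% in myoblasts, and the gene lists that follow are to be read against these shares. Among 12 listed Sox genes, 5 had a cluster in heart, 3 in muscle and 1 in myoblasts, Sox6 included. Of the SoxD group, Sox5 had 2 clusters in heart and 0 in muscle, and Sox13 had 4 and 2. Sox9 had 2 in muscle and the only Sox cluster of myoblasts.

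Among 12 genes of slow fibres and heart muscle, the kind that SOX6 is known to repress in fast fibres, 10 had a cluster in heart, 6 in muscle and 2 in myoblasts, with 116, 20 and 5 clusters. Atp2a2, the calcium pump of heart and slow fibres, had 59 in heart, 15 in muscle and 4 in myoblasts. Casq2, the cardiac calsequestrin, had 18, 1 and 0, and Pln, phospholamban, 10, 1 and 0. The 12 genes of fast fibres had fewer clusters in heart than in muscle, with 15, 69 and 0 clusters in 6, 10 and 0 genes. Atp2a1, the calcium pump of fast fibres, had 9 in heart and 18 in muscle, Myh4, a fast myosin heavy chain, 1 and 12, and Tnnt3, fast troponin T, 1 and 10. Myosin genes are near copies of one another, and only uniquely mapped reads were kept, so their counts are uncertain.

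Of 22 listed names for partners of SOX6 and regulators of fibre type, of which 1 was not matched, 18 had a cluster in heart, 15 in muscle and 9 in myoblasts, with 206, 147 and 18 clusters. Tead1, a transcription factor of muscle gene promoters, had 42 in heart, 22 in muscle and 7 in myoblasts. Mef2a, a myocyte enhancer factor, had 24, 17 and 2. Ppargc1a, the coactivator PGC-1alpha of oxidative fibres, had 27, 15 and 0. Sox6 with 68, 84 and 0 thus had more clusters than any other gene of these lists in heart and in muscle, and unlike these 3 it had more in muscle than in heart.

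The tissue labels were checked against markers. Heart markers had 346 clusters in the heart list, 4 in muscle and 1 in myoblasts (6, 2 and 1 of 7 genes). Skeletal muscle markers had 10, 87 and 0 (4, 7 and 0 of 7 genes), and myoblast markers 6, 4 and 39 (2, 2 and 3 of 7 genes). Single genes held most of each sum, with 252 for Ryr2 in heart, 49 for Ryr1 in muscle and 26 for Hmga2 in myoblasts. The heart marker Nppa and the myoblast markers Myf5, Cdh15, Pax7 and Igf2bp1 had no cluster, and were named after their values were seen. What part these differences between the lists have in the Sox6 counts was not tested.

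The genes most like Sox6 were found from the square roots of the intronic and 3' UTR counts in the 3 libraries, 6 values per gene, by Euclidean distance. The nearest were Rbfox1 at a distance of 2.58, with 51 clusters in heart, 101 in muscle and 0 in the C2C12 line, and Zbtb16 at 2.87, with 92, 50 and 0. Then came Pde4dip at 3.55 with 57, 36 and 0, Cacna2d1 at 3.72 with 54, 48 and 3, and Atxn1 at 3.73 with 53, 49 and 5. Rbfox1, a splicing regulator, had 20 clusters in its 3' UTR in muscle and 7 in heart, and Cacna2d1, a calcium channel subunit gene, had 20 and 17. The other 3 had fewer 3' UTR clusters in muscle than in heart or 1 more.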

How the data were processed

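According to the labels and methods, identical CLIP reads were collapsed by the authors, freed of adapters and mapped to mm9 and splice junctions with Bowtie and TopHat (versions not given in the sources used here), keeping unique matches. Windows of 30 nt were tested against a Poisson model of gene expression and pre-mRNA length. The deposited lists give the position, strand and Entrez identifier of each cluster, called per library. Their remaining column holds a single constant and was not used.

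A cluster was placed by its midpoint in GENCODE transcripts of the same build, with Python 3.11.15, pysam 0.24.0, pandas 2.3.3 and scipy 1.17.1. A shared cluster overlapped one of the other library by at least 1 bp on the same strand. Of 8037 gene identifiers 7970 (99.2%) were matched to the annotation. Unique mapping removes reads from repeats, and clusters depend on depth, which the lists do not hold. The counting was tested on simulated data. The gene and all lists were chosen with earlier results of these data known. Named genes were Sox5, Sox13, the 3 with most clusters per list and the 5 nearest to Sox6. Named after their values were seen were Mllt3, Synm, Nppa, Myf5, Cdh15, Pax7, Igf2bp1, Myh6, Myh7 and Myh7b. One listed symbol (Thrap1, an older name of Med13, which is also listed) was not matched.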

Additional observations from a re-analysis of the deposited data

How the results depend on the processing

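Of 48 alternative values, 42 stayed within counting error or, for counts, 1.5 times of those reported, 6 moved further, and no direction reversed. With neighbours within 30 nt merged (chosen after seeing the data), muscle had 12 sites in the 3' UTR in place of 22 clusters. With only clusters of at least 40 nt, the count of muscle clusters in coding exons was 0 in place of 1. With an overlap of at least 50% of both clusters, 39.7% of heart clusters were shared (25.6% over all genes). With heart clusters widened by 50 nt, 53.6% of muscle clusters were shared (58.0% over all genes). With at least 2 UGU asked for, 91.2% of heart clusters (89.7% over all genes) and 86.9% of muscle clusters (89.3%) passed. No paired analysis was possible because each group has 1 library and no result comes from a test. Without replicates or read numbers, differences between libraries in depth, RNA level and binding cannot be told apart.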

Other observations

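Of the genes that host the microRNAs with seed matches in the Sox6 3' UTR, Myh7b and Myh7 had few clusters and Myh6 had more. Myh6, host of miR-208a, had 21 in heart, 0 in muscle and 0 in myoblasts. Myh7b, host of miR-499, had 4 in heart, 0 in muscle and 0 in myoblasts, and Myh7, host of miR-208b, had 2, 1 and 0. These genes were named after their values were seen.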
